A study of Mus musculus with 21 samples.

Results

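Hedgehog signalling was followed through 9 genes of mouse epidermal keratinocytes: the ligand co-receptors Gas1, Cdon and Boc, the ligand-binding proteins Ptch1 and Hhip, the transducer Smo and the transcription factors Gli1, Gli2 and Gli3. They were taken by gene symbol from the 43776 symbols of 3 deposited tables, and all 9 had a line in each table. The series holds 21 RNA-seq libraries in 7 groups of 3. A table with 3 populations covers hair follicle stem cells (HFSCs), which were purified by flow cytometry, cultured HFSCs and total epidermal cells, all wild type. In that table the populations are called HFSC, CD34a6 and bulk. Bulk was read as total epidermal cells, while the labels do not say which of HFSC and CD34a6 holds the sorted and which the cultured cells, so both are column names here and not statements about their origin. A table of sorted culture fractions holds the CD34+ and the CD34neg cells, both positive for alpha-6 integrin, of cultures (called 3C) in which total epidermal cells had grown for 10 to 14 days. A table of treated 3C cultures holds dorsomorphin, which inhibits BMP type I receptors, and cyclopamine, which inhibits Smo, each present in the medium for 48 h. Genotype of the culture libraries, strain, sex and age were not used here. CD34 and alpha-6 integrin are the surface markers with which bulge HFSCs are usually sorted.

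In the Hedgehog pathway, a secreted ligand binds Ptch1 on the receiving cell with the help of Gas1, Cdon or Boc, and this ends the inhibition of Smo by Ptch1. Smo then moves into the primary cilium, where Gli2 and Gli3 are no longer turned into repressors, and transcription of Gli1, Ptch1 and Hhip follows in many tissues. Ptch1 and Hhip bind the ligand in turn and so limit the response. In skin the pathway is known for driving hair follicle formation and growth, and Gli1 has served as a mark of Hedgehog-responding cells of the follicle.

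Expression was deposited as 1 FPKM (fragments per kilobase of transcript, scaled to the depth of a library) per gene and population. No value per library was used, so no spread between replicates stands beside any level, and read depth is unknown. Higher and lower calls rest on an adjusted p under 0.05 from the authors' deposited table, and log2 folds carry a pseudocount of 1 FPKM where this is said. The labels do not tie the 3 libraries of a group to separate animals or separate cultures, so these p-values may measure technical spread only. Since each table was normalised on its own, levels are set side by side only inside a table. Summed FPKM differed between the columns of a table, at 482175 in HFSC, 406723 in CD34a6 and 917078 in bulk. It was 511143 in CD34+ and 679559 in CD34neg cells, and 495393 with dorsomorphin and 536270 with cyclopamine. Bringing every column to the same sum would add 1.17 to each log2 fold of CD34a6 against bulk, 0.93 to HFSC against bulk, 0.41 to CD34+ against CD34neg and 0.11 to dorsomorphin against cyclopamine, and would take 0.25 from HFSC against CD34a6. Keratinocyte identity was checked with Krt5, which was at 6893 FPKM in HFSC, 6494 in CD34a6 and 4960.2 in bulk, and between 3619 and 5039 FPKM in the 4 culture columns. The other 3 basal markers differed between the populations. Krt14 was at 8296 FPKM in HFSC, 1257 in CD34a6 and 3419.7 in bulk, lower in CD34a6 than in bulk and higher in HFSC than in either. Itga6 (306 FPKM in HFSC, 155 in CD34a6 and 72.4 in bulk) and Trp63 (143 FPKM in HFSC, 279 in CD34a6 and 73.3 in bulk) were called higher than bulk in both. Cd34, the sort marker, was at 8.70 FPKM in HFSC, 327 in CD34a6 and 10.6 in bulk, and at 38.7 FPKM in CD34+ cells against 2.26 in CD34neg cells.

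All 9 genes were highest in CD34a6. Against bulk, 9 of 9 tested genes were called higher in CD34a6 and 0 lower, where 22.0% of the 14441 tested loci were called higher and 24.3% lower. The median log2 fold of the 9, with the pseudocount, was 3.02, beside 0.00 over all tested loci. HFSC did not follow one direction against bulk: 3 genes were called higher (Ptch1, Gli2 and Gli3), 2 lower (Gli1 and Boc), and 4 were not called. There 19.0% of 14035 tested loci were called higher and 24.7% lower, so 3 and 2 of 9 are shares not far from these, and the median log2 fold was 0.35, beside -0.11 over all tested loci. HFSC against CD34a6 gave 8 of 9 genes lower and 0 higher, where 29.0% of 13962 tested loci were called lower and 25.2% higher, with a median log2 fold of -2.84 beside -0.07. These comparisons share columns pairwise, so they are no independent repeats of each other. Calls were rare over all loci of the culture tables, with 2.08% of 11370 tested loci called higher and 4.71% lower in CD34+ than in CD34neg cells, and 1.26% of 11505 higher and 1.31% lower with dorsomorphin than with cyclopamine. Among the members, 1 of 7 tested genes (Boc) was higher in CD34+ cells, and 0 of 7 were called between the inhibitors. At an adjusted p under 0.01 the calls of Ptch1 and Boc in HFSC against bulk, and that of Boc in CD34+ against CD34neg cells, would not be made.

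**Figure D1:**
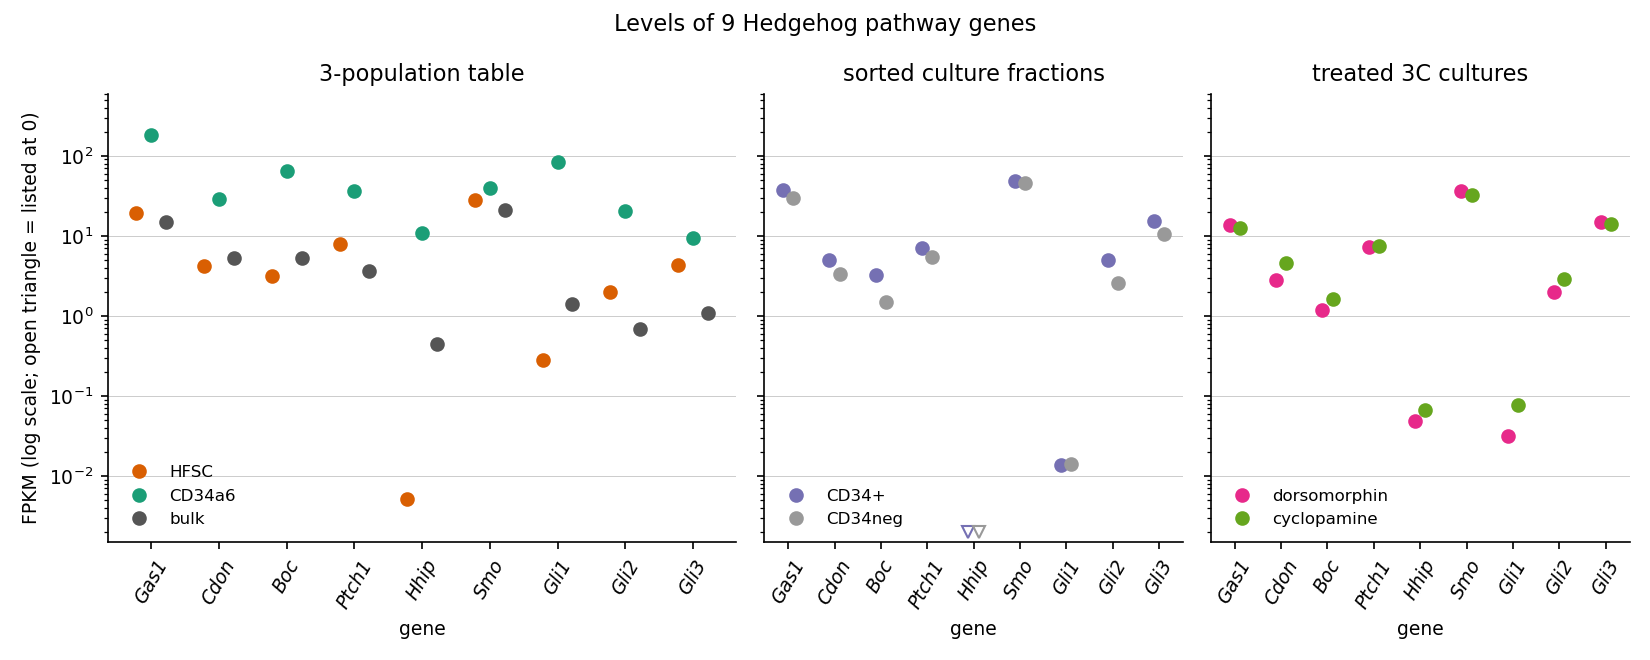
FPKM of the 9 genes on a log axis, 1 point per gene and population, with a panel per table; open triangles mark a value listed at 0. In the left panel the CD34a6 points lie above those of HFSC and bulk for all 9 genes, while points of the same gene in the other panels lie close together; no error bars are drawn because no values per library were used.

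Gas1, a membrane-anchored co-receptor that binds Hedgehog ligands, was the most abundant of the 9 in CD34a6. Its locus is chr13:60174405-60177365 on the minus strand (GRCm38). It was at 19.5 FPKM in HFSC, 184 in CD34a6 and 15.0 in bulk. HFSC and bulk lay close together and CD34a6 stood 12.2-fold above bulk, with an adjusted p of 0.000212 from the authors' deposited table. HFSC was 9.44-fold below CD34a6, with the same adjusted p of 0.000212 from the authors' deposited table. This value goes with an unadjusted p of 5e-05, the smallest of any tested locus in the authors' deposited table. Genes that share it, here and below, are therefore not ranked by it. HFSC was not called against bulk, at an adjusted p of 0.209 from the authors' deposited table.

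Cdon (chr9:35421128-35507652, plus strand) and Boc (chr16:44485045-44558897, minus strand) encode related cell surface proteins of the immunoglobulin superfamily that act as co-receptors beside Gas1. Cdon was at 4.20 FPKM in HFSC, 28.8 in CD34a6 and 5.25 in bulk, so that CD34a6 was 5.48-fold above bulk and HFSC 6.85-fold below CD34a6. Both were called, each with an adjusted p of 0.000212 from the authors' deposited table, while HFSC against bulk was not, at 0.496. Boc was at 3.13 FPKM in HFSC, 65.0 in CD34a6 and 5.34 in bulk. CD34a6 was 12.2-fold above bulk and HFSC 20.8-fold below CD34a6, each at an adjusted p of 0.000212 from the authors' deposited table. Boc was also called lower in HFSC than in bulk, 1.71-fold and at an adjusted p of 0.0389 from the authors' deposited table, but after scaling to equal summed FPKM its log2 fold turned from -0.77 to 0.16. The direction of Cdon in HFSC against bulk turned likewise, with a log2 fold of -0.32 as deposited and 0.61 after scaling.

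Added up, the 3 co-receptors had 26.8 FPKM in HFSC, 278 in CD34a6 and 25.6 in bulk. Their make-up differed less than their sum: Gas1 supplied 72.7% in HFSC, 66.2% in CD34a6 and 58.7% in bulk. Boc supplied 11.7% in HFSC, 23.4% in CD34a6 and 20.8% in bulk, its largest share being that in CD34a6.

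Boc was the 1 gene of the 9 that was called between the culture fractions. It had 3.27 FPKM in CD34+ against 1.498 in CD34neg cells, a 2.18-fold difference with an adjusted p of 0.0321 from the authors' deposited table. Gas1 stood at 37.9 FPKM in CD34+ and 30.0 in CD34neg cells, and Cdon at 5.03 FPKM in CD34+ and 3.34 in CD34neg cells. Neither was called, at an adjusted p of 0.343 for Gas1 and 0.272 for Cdon from the authors' deposited table. With the inhibitors, Gas1 was at 13.7 FPKM with dorsomorphin and 12.4 with cyclopamine. Cdon was at 2.83 FPKM with dorsomorphin and 4.60 with cyclopamine, and Boc at 1.19 FPKM with dorsomorphin and 1.64 with cyclopamine. None of these 3 was called, with adjusted p of 0.824 for Gas1, 0.428 for Cdon and 0.500 for Boc from the authors' deposited table.

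Ptch1, the main Hedgehog receptor and itself a target of the pathway, lies at chr13:63508328-63573598 on the minus strand. It was at 7.97 FPKM in HFSC, 36.5 in CD34a6 and 3.68 in bulk, and each pair of neighbours in this order was called apart. CD34a6 was 9.91-fold above bulk and HFSC 4.58-fold below CD34a6, both with an adjusted p of 0.000212 from the authors' deposited table. HFSC was 2.16-fold above bulk with an adjusted p of 0.0161 from the authors' deposited table. In the cultures Ptch1 was not called. It had 6.97 FPKM in CD34+ against 5.37 in CD34neg cells, with an adjusted p of 0.368 from the authors' deposited table. With dorsomorphin it was at 7.20 FPKM, against 7.47 with cyclopamine, with an adjusted p of 0.954 from the authors' deposited table. The sign of this last difference depends on scaling, with a log2 fold of -0.05 as deposited and 0.06 after it.

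Hhip encodes a membrane protein that binds and sequesters Hedgehog ligands, and it too is a target of the pathway. At chr8:79966115-80058006 on the minus strand, it had 0.00516 FPKM in HFSC, 10.7 in CD34a6 and 0.447 in bulk. It exceeded 1 FPKM in no other column than CD34a6, where it was 24.0-fold above bulk with an adjusted p of 0.000212 from the authors' deposited table. Its level in HFSC was the lowest of all members in that table, 2083-fold below CD34a6, a fold whose size rests on a value near 0. HFSC against CD34a6 was nevertheless not called, with an adjusted p of 0.302 from the authors' deposited table, and this missed threshold does not show similar levels. Against bulk the adjusted p of HFSC was 0.308. Hhip was listed at 0 in both culture fractions, and at 0.0491 FPKM with dorsomorphin and 0.0672 with cyclopamine. The authors' deposited tables give no test of it in the cultures.

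The start regions of Ptch1 and Hhip are shown as those of the ligand-binding targets. Both were called higher in CD34a6 than in bulk, as all 9 genes were, so this call does not set the pair apart. RefSeq windows (GRCm38.p6) from 250 bases before to 50 after the start, 300 bases long, were found for 7 of the 9 genes; Gli1 and Boc were not among them. The Gli recognition motif GACCACCCA, searched on both strands, occurred in 0 of 7 windows, against 0.253% of 32851 windows of all genes. With 1 mismatch allowed it also occurred in 0 of 7, against 6.74% of all windows. Its 6-letter core CCACCC, contained in the longer motif and searched on both strands after the longer motif gave no match, occurred in 4 of 7 windows (Gli2, Gli3, Hhip and Smo), against 31.5% of all windows. A match of this kind is a description of letters and no binding site, and its lack concerns these windows only. The Cdon window (chr9:35451826-35452125, plus strand) lies inside the annotated gene, which starts at 35421128. Hhip (chr8:80057959-80058258, minus strand) and Ptch1 (chr13:63565686-63565985, minus strand, a window inside the annotated gene) are printed 5′ to 3′ with the core in capitals. The Hhip window holds 1 core, on the strand of the gene, and the Ptch1 window holds 0.
Hhip: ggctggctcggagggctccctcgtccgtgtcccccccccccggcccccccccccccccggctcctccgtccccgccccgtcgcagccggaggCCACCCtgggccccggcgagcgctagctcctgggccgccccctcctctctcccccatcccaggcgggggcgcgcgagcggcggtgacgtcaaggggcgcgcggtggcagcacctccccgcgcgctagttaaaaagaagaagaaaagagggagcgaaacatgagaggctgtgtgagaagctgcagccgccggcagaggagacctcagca
Ptch1: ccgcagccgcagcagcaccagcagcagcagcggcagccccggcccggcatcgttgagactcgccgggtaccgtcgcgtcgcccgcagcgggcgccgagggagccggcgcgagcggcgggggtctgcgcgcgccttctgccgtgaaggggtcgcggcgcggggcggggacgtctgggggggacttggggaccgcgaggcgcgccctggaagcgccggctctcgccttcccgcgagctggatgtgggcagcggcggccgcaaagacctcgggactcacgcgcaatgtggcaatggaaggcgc

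Smo, the membrane protein that passes the signal on and the target of cyclopamine, varied least of the 9 between the 3 populations. From chr6:29735694-29761365 on the plus strand, it was at 28.2 FPKM in HFSC, 40.1 in CD34a6 and 21.0 in bulk. CD34a6 was 1.91-fold above bulk, with an adjusted p of 0.00891 from the authors' deposited table. HFSC was 1.42-fold below CD34a6, with an adjusted p of 0.00293 from the authors' deposited table, and was not called against bulk, at 0.163. Smo had 48.0 FPKM in CD34+ against 45.7 in CD34neg cells, with an adjusted p of 0.832 from the authors' deposited table. It was at 36.1 FPKM with dorsomorphin and 32.0 with cyclopamine, with an adjusted p of 0.645 from the authors' deposited table. Per length, Smo was the most abundant of the 9 in every column other than CD34a6, where Gas1, Gli1 and Boc exceeded it.

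Gli1 is the Gli factor that acts as an activator and is itself switched on by the pathway. With the pseudocount of 1 FPKM, it had the largest log2 folds of the 9 genes in CD34a6 against bulk (5.14) and in HFSC against CD34a6 (-6.05). As deposited, without a pseudocount, the log2 fold of Hhip in HFSC against CD34a6 was larger, at -11.0 beside -8.22 for Gli1. Gli1 was at 0.283 FPKM in HFSC, 84.2 in CD34a6 and 1.42 in bulk. CD34a6 was 59.4-fold above bulk and HFSC 297-fold below CD34a6, each with an adjusted p of 0.000212 from the authors' deposited table. HFSC was 5.01-fold below bulk, with an adjusted p of 0.00472 from the authors' deposited table, so all 3 populations were called apart. In the cultures Gli1 was near 0, at 0.0139 FPKM in CD34+ and 0.0142 in CD34neg cells, and at 0.0315 FPKM with dorsomorphin and 0.0763 with cyclopamine, and it was not tested in either culture table.

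The deposited Gli1 locus, chr10:127323727-127341589 on the minus strand, also covers Arhgap9, a gene of the opposite strand, and it begins before the annotated Gli1 gene (127329882 to 127341974). The library kit keeps strand, but whether the authors' counting used it is not given in the sources used here. Arhgap9 has a line of its own, at 0.340 FPKM in HFSC, 2.26 in CD34a6 and 3.03 in bulk. It was not called between CD34a6 and bulk, with an adjusted p of 0.751 from the authors' deposited table, and it was called lower in HFSC than in bulk, with an adjusted p of 0.000932 from the authors' deposited table. HFSC is thus lower than bulk on both lines that share the locus, and the part of shared reads in the Gli1 value was not tested. In the CD34a6 column the Gli1 level was far above that of Arhgap9. In bulk, at 1.42 FPKM, and in HFSC, at 0.283 FPKM, the Gli1 level was below that of Arhgap9.

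Gli2 (chr1:118834132-119053619, minus strand), the main activator at the start of the response, was at 1.99 FPKM in HFSC, 20.4 in CD34a6 and 0.678 in bulk. CD34a6 was 30.2-fold above bulk and HFSC 10.3-fold below CD34a6, each with an adjusted p of 0.000212 from the authors' deposited table. HFSC was 2.94-fold above bulk, with an adjusted p of 0.000932 from the authors' deposited table. Gli3 (chr13:15440302-15730026, plus strand), known mainly as a repressor of the pathway, was at 4.35 FPKM in HFSC, 9.37 in CD34a6 and 1.07 in bulk. CD34a6 was 8.72-fold and HFSC 4.05-fold above bulk, and HFSC was 2.16-fold below CD34a6, all at an adjusted p of 0.000212 from the authors' deposited table. Gli2 and Gli3 thus stood in the order CD34a6, HFSC, bulk, each step called, whereas Gli1 stood in the order CD34a6, bulk, HFSC.

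In the cultures, Gli2 had 5.02 FPKM in CD34+ against 2.55 in CD34neg cells, with an adjusted p of 0.369 from the authors' deposited table. Gli3 had 15.2 FPKM in CD34+ against 10.6 in CD34neg cells, with an adjusted p of 0.309 from the authors' deposited table. With dorsomorphin Gli2 was at 2.02 FPKM, against 2.86 with cyclopamine, and Gli3 was at 14.8 FPKM with dorsomorphin, against 13.9 with cyclopamine. Neither was called, at adjusted p of 0.730 for Gli2 and 0.942 for Gli3 from the authors' deposited table.

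FPKM is a level per length, so the make-up of the Gli family can be read within a column. Gli1 made up 4.27% of the summed FPKM of the 3 factors in HFSC, 73.8% in CD34a6 and 44.7% in bulk. Gli3 made up 65.6% in HFSC, 8.22% in CD34a6 and 33.9% in bulk, and Gli2 30.1% in HFSC, 17.9% in CD34a6 and 21.4% in bulk. Gli3 was the most abundant factor in HFSC and Gli1 in CD34a6 and in bulk. In bulk this order rests on 1.42 FPKM of Gli1 against 1.07 of Gli3. The locus that Gli1 shares with Arhgap9, at 3.03 FPKM in bulk, limits this reading. All 4 culture columns had the order Gli3, Gli2, Gli1: Gli3 made up 75.2% in CD34+ and 80.5% in CD34neg cells, and 87.8% with dorsomorphin and 82.6% with cyclopamine. Gli1 made up 0.0685% in CD34+ and 0.108% in CD34neg cells, and 0.187% with dorsomorphin and 0.452% with cyclopamine. The sum of the 3 factors was 6.62 FPKM in HFSC, 114 in CD34a6 and 3.17 in bulk, 20.3 in CD34+ and 13.2 in CD34neg cells, and 16.8 with dorsomorphin and 16.9 with cyclopamine. These shares have no test, since each rests on 1 value per population.

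**Figure D2:**
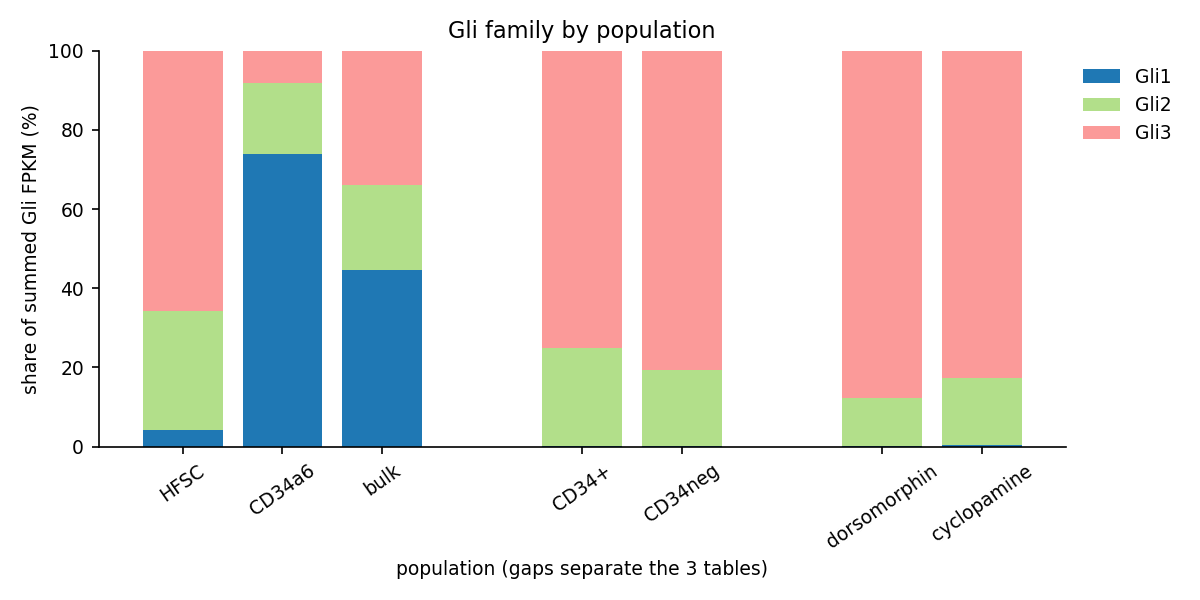
Share of Gli1, Gli2 and Gli3 in the summed FPKM of the 3 factors, in percent from 0 to 100, 1 bar per population with gaps between the tables. Gli1 takes 73.8% in CD34a6 and 44.7% in bulk, and Gli3 takes the largest share in HFSC and in all 4 culture columns. The Gli1 locus also covers Arhgap9, whose level in bulk was above that of Gli1.

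In HFSC against bulk, calls in both directions stood among the usual targets and among the other genes. Of the 3 usual targets, Ptch1 was called higher in HFSC than in bulk, Gli1 was called lower, and Hhip was lower in level and not called. Of the other 6 genes, Gli2 and Gli3 were called higher, Boc was called lower with a sign that turned under scaling, and Gas1, Cdon and Smo were not called. In CD34+ against CD34neg cells, all 7 tested genes had the higher level in CD34+ cells, with a median log2 fold of 0.47 beside -0.07 over all tested loci, yet 1 of the 7 had an unadjusted p under 0.05 from the authors' deposited table, and that gene was Boc. Dorsomorphin against cyclopamine gave a median log2 fold of -0.05 beside -0.02 over all tested loci, 3 of the 7 tested genes were at a higher level with dorsomorphin, and 0 of the 7 had an unadjusted p under 0.05. Both columns of that table hold inhibitor-treated cultures, so the effect of either inhibitor on the pathway cannot be read from it, and a missed threshold does not show equal levels. Fewer cells of a type and less RNA per cell cannot be told apart in such bulk samples.

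**Figure D3:**
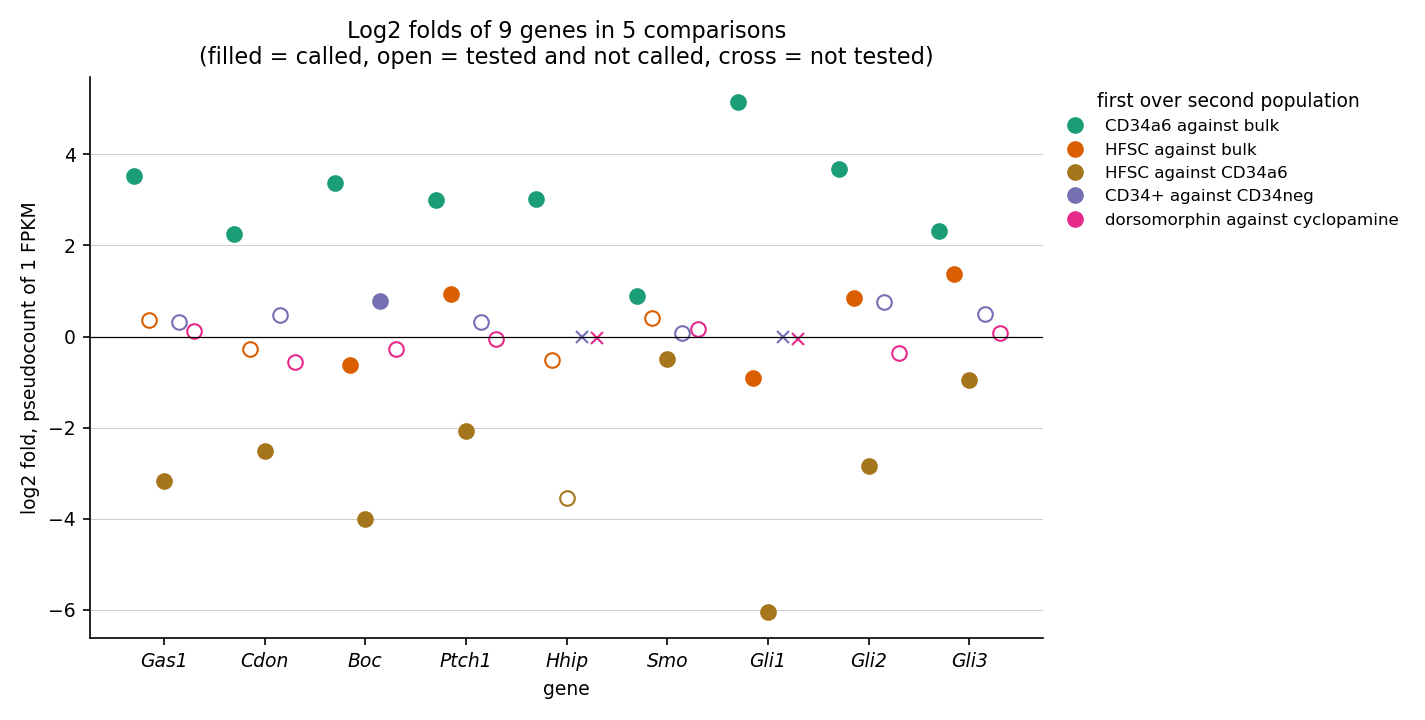
Log2 fold of each gene in the 5 comparisons, with a pseudocount of 1 FPKM, the population named in front in the legend over the other. Filled points were called at an adjusted p under 0.05, open points were tested and not called, and crosses were not tested. The CD34a6 against bulk points are all filled and above 0, those of HFSC against CD34a6 are all below 0 with Hhip open, and 1 point of the culture comparisons, that of Boc in CD34+ against CD34neg, is filled.

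The rest of the pathway was read from 75 further genes in 5 lists: ligands and their release, other receptors and surface proteins, cytoplasmic transducers and regulators, proteins of the primary cilium, and genes reported as Gli targets in other settings. CD34a6 against bulk had 35 of 65 tested genes higher and 0 lower, beside 22.0% and 24.3% of all tested loci. HFSC against bulk had 16 of 61 higher and 8 lower, beside 19.0% higher and 24.7% lower of all tested loci. The share of higher genes thus lay near that of all loci, and the share of lower genes lay below it. HFSC against CD34a6 had 9 of 65 higher and 42 lower, beside 25.2% higher and 29.0% lower. The counts of single lists below are to be read against the same shares. In the cultures 2 of 52 tested genes were higher and 0 lower in CD34+ cells, beside 2.08% and 4.71% of all tested loci. With dorsomorphin 0 of 49 were higher and 2 lower, beside 1.26% and 1.31%. Of the 24 called genes of HFSC against bulk, 1 (Ift172) turned its direction under scaling, and 0 of the called genes of the other comparisons did.

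Ligand transcripts were scarce throughout. Shh, the ligand of the hair follicle, was listed at 0 in HFSC and CD34a6 and at 0.155 FPKM in bulk, and at 0 in all 4 culture columns. Dhh, another of the Hedgehog ligands, was at 0.724 FPKM in HFSC, 0.464 in CD34a6 and 0.0267 in bulk, at 1.74 FPKM in CD34+ and 0.772 in CD34neg cells, and at 0.904 FPKM with dorsomorphin and 1.098 with cyclopamine, with no call. Of the genes for ligand release, Disp1, a transporter that lets ligand leave the cell, was lower in HFSC, at 1.29 FPKM against 3.66 in CD34a6 and 2.56 in bulk. Scube2, a secreted protein that helps this release, was lower in HFSC too, at 0.135 FPKM against 2.26 in CD34a6 and 1.53 in bulk. In all, CD34a6 against bulk gave 1 of 5 tested genes higher and 0 lower, HFSC against bulk gave 0 of 4 higher and 2 lower, and HFSC against CD34a6 gave 0 of 5 higher and 3 lower. The gene higher in CD34a6 was Scube3, a relative of Scube2, at 0.107 FPKM in HFSC, 0.911 in CD34a6 and 0.0458 in bulk. In the cultures 1 gene of this list was tested in the sorted fractions, without a call, and 0 with the inhibitors.

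Of the list of other receptors and surface proteins, Gpc3, a glypican that competes with Ptch1 for ligand, was at 0.524 FPKM in HFSC, 3.91 in CD34a6 and 3.83 in bulk. It was called lower in HFSC than in each of the others and was not called between CD34a6 and bulk. In the cultures 0 genes of this list were tested.

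Of 21 cytoplasmic transducers and regulators, CD34a6 against bulk gave 9 higher and 0 lower. Kif7, a kinesin-like protein that organises Gli proteins at the tip of the cilium, had 10.7 FPKM in CD34a6 against 0.563 in bulk. Evc and Evc2, partners of Smo at the base of the cilium, were at 16.3 and 14.2 FPKM in CD34a6, against 2.79 and 2.11 FPKM in bulk. Tulp3, which carries receptors into the cilium, had 20.8 FPKM in CD34a6 against 4.63 in bulk. HFSC against bulk had 6 of 21 higher and 1 lower. Gpr161, a ciliary receptor that holds the pathway down, had 15.6 FPKM in HFSC against 1.24 in bulk, and Tulp3 at 14.9 FPKM in HFSC against the bulk level given above. Dyrk2, a kinase reported to act on Gli proteins, had 19.7 FPKM in HFSC against 7.96 in bulk. Adrbk1, a kinase for which Smo is a substrate, was the 1 lower gene, at 51.9 FPKM in HFSC and 208 in bulk. HFSC against CD34a6 split, with 5 higher and 10 lower. The lower genes included Kif7, at 0.918 FPKM in HFSC and 10.7 in CD34a6, Efcab7, at 1.802 FPKM in HFSC and 10.6 in CD34a6, and Evc and Evc2, at 5.18 and 5.61 FPKM in HFSC. In the sorted fractions 0 of 18 tested genes of this list were called, and with the inhibitors 0 of 17.

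The primary cilium list moved mostly with the 9 genes between the 3 populations. CD34a6 against bulk gave 17 of 26 tested genes higher and 0 lower, and HFSC against CD34a6 gave 0 higher and 22 lower. Ift80, a subunit of the particle that carries cargo along the cilium, was at 6.49 FPKM in HFSC, 30.2 in CD34a6 and 3.08 in bulk. Wdr35 and Ift122, subunits of the particle that returns cargo to the base, were at 16.9 and 16.3 FPKM in CD34a6, against 4.62 and 3.43 FPKM in bulk. Tctn1, a protein of the ciliary transition zone, had 12.7 FPKM in CD34a6 against 2.28 in bulk. In HFSC against CD34a6, Dync2h1, the motor heavy chain of return transport, had 0.898 FPKM in HFSC against 4.84 in CD34a6. Ift172 had 3.90 FPKM in HFSC against 14.8 in CD34a6, and Mks1, of the transition zone, at 1.46 FPKM in HFSC and 8.15 in CD34a6. Against bulk, HFSC had 5 of 26 higher, among them Wdr35 at 13.3 FPKM and Ift80, and 3 lower, namely Mks1, at 1.46 FPKM in HFSC and 3.69 in bulk, Tmem67, at 0.985 FPKM in HFSC and 2.74 in bulk, and Ift172. In the sorted fractions 0 of 24 tested genes were called, and with the inhibitors 0 of 23.

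Genes reported as Gli targets elsewhere were called in both directions in the comparisons with HFSC, but not in CD34a6 against bulk. In CD34a6 against bulk 7 of 11 tested genes were higher and 0 lower. Mycn, a Myc family transcription factor, had 10.5 FPKM in CD34a6 against 0.410 in bulk, and Bcl2, which blocks apoptosis, at 12.8 FPKM in CD34a6 and 2.13 in bulk. Rab34, a small GTPase needed for cilium formation, had 108 FPKM in CD34a6 against 16.0 in bulk, and Sfrp1, a secreted Wnt inhibitor, at 482 FPKM in CD34a6 and 17.4 in bulk. In HFSC against bulk 5 of 9 were higher and 1 lower. The higher ones included the G1 cyclins Ccnd1, at 132 FPKM in HFSC and 17.7 in bulk, and Ccnd2, at 210.0 FPKM in HFSC and 33.1 in bulk, with Rab34 at 37.9 FPKM in HFSC, and the lower one was Sfrp1, at 2.73 FPKM in HFSC. HFSC against CD34a6 had 4 of 11 higher, Ccnd2 among them against 68.5 FPKM in CD34a6, and 5 lower, among them Mycn at 0.0660 FPKM in HFSC, Bcl2 at 1.60 FPKM in HFSC, and Sfrp1. Ccnd1 and Ccnd2, higher in HFSC than in CD34a6 where Gli1 was lower, were higher in CD34a6 than in bulk, as Gli1 was, at 50.9 FPKM for Ccnd1 and 68.5 for Ccnd2 in CD34a6. In CD34+ against CD34neg cells 2 of 9 were higher: Jag2, a Notch ligand, at 17.1 FPKM in CD34+ and 9.56 in CD34neg cells, and Sfrp1, at 32.9 FPKM in CD34+ and 12.8 in CD34neg cells. With dorsomorphin against cyclopamine 2 of 9 were lower: Sfrp1, at 6.44 FPKM with dorsomorphin and 9.82 with cyclopamine, and Spp1, which encodes osteopontin, at 60.9 FPKM with dorsomorphin and 94.7 with cyclopamine.

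**Figure D4:**
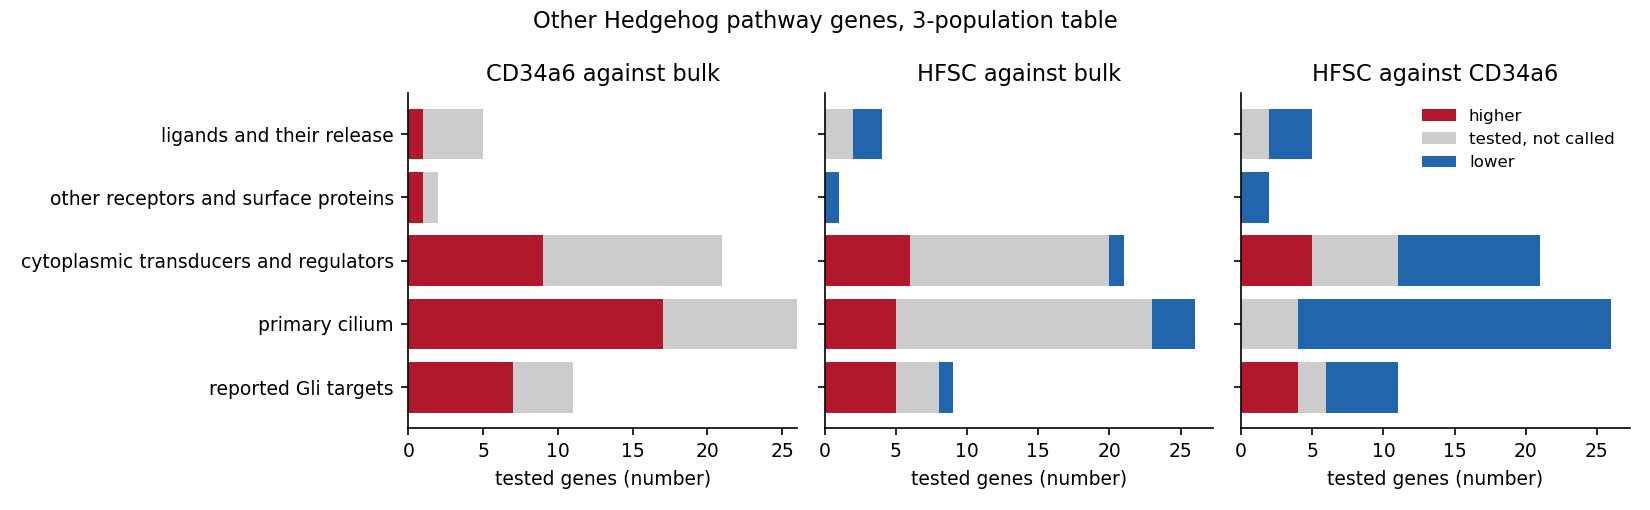
Number of tested genes of each of the 5 lists that were called higher, not called or called lower, in the 3 comparisons of the 3-population table. The left panel holds no lower calls, and the right panel holds 22 lower calls among the 26 tested cilium genes.

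Markers of other cells differed between the populations as well, and their part in the Hedgehog values was not tested. Of 8 fibroblast markers, 2 of 3 tested were higher in CD34a6 than in bulk and 0 lower, and their summed level was 0.607 FPKM in HFSC, 33.1 in CD34a6 and 4.38 in bulk. In CD34a6 most of this sum was Col1a1, at 22.4 FPKM, and Col1a2, at 8.08 FPKM, while Col3a1, Lum and Twist2 were listed at 0 and Pdgfra was at 0.0410 FPKM. The 5 dermal papilla markers summed to 0.288 FPKM in HFSC, 3.10 in CD34a6 and 0.656 in bulk. Most of the sum in CD34a6 was Crabp1, at 2.89 FPKM and not called against bulk, while Rspo3 was called lower, at 0.133 FPKM in CD34a6 against 0.543 in bulk, and Sox2 was listed at 0 in CD34a6. Of 4 melanocyte markers Dct was higher in CD34a6, at 7.29 FPKM against 2.63 in bulk. The other 3 were at lower levels there, Pmel not called and Mlana and Tyr not tested: Pmel at 0.643 FPKM in CD34a6 against 2.57 in bulk, Mlana at 0.0588 FPKM in CD34a6 against 0.265 in bulk, and Tyr at 0.0241 FPKM in CD34a6 against 0.228 in bulk. The melanocyte list summed to 0.525 FPKM in HFSC, 8.02 in CD34a6 and 5.70 in bulk. All 4 immune and all 4 suprabasal markers were lower in CD34a6 than in bulk, with immune sums of 1.103 FPKM in HFSC, 4.23 in CD34a6 and 187 in bulk. The suprabasal sum was 139.9 FPKM in HFSC, 1110.4 in CD34a6 and 34041 in bulk. Endothelial and Merkel or neural markers summed to less than 1 FPKM in each of the 7 columns. Among them Pecam1, an endothelial marker, was called higher in HFSC, at 0.955 FPKM, than in CD34a6, at 0.260, and in bulk, at 0.203. The 4 bulge markers Cd34, Krt15, Lhx2 and Lgr5 summed to 49.0 FPKM in HFSC, 10590.5 in CD34a6 and 4812 in bulk, and to 109 FPKM in CD34+ and 13.8 in CD34neg cells. Most of these sums was Krt15, at 9923 FPKM in CD34a6 and 4791 in bulk and not called between them. Cd34, Lhx2 and Lgr5 were called higher in CD34a6 than in bulk, 30.9-fold, 34.2-fold and 37.6-fold. In HFSC against bulk Cd34 was not called and the other 3 were called lower. In the treated cultures the dermal papilla sum was 19.5 FPKM with dorsomorphin and 11.6 with cyclopamine, nearly all of it Crabp1, and the fibroblast sum was 7.10 FPKM with dorsomorphin and 3.34 with cyclopamine, with no call in either list. In the sorted fractions the fibroblast sum was 0.593 FPKM in CD34+ and 0.308 in CD34neg cells.

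Genes with a pattern like that of Gli1 or Ptch1 were sought among 10213 genes by the Euclidean distance over 4 log2 folds with the pseudocount, leaving out HFSC against CD34a6, which the others imply. Of the 4 folds, those of CD34a6 and HFSC share the bulk column. With the pseudocount, a gene near 0 FPKM in the cultures has culture folds near 0, so any such gene is close to Gli1 on both culture folds. Nearest to Gli1 were Ptprv, at a distance of 0.57, Il31ra at 0.66, Gdf10 at 0.74, Igfbp5 at 1.01 and Col5a1 at 1.08. Each of them reached the required 5 FPKM in CD34a6 alone. Ptprv was at 0.00766 FPKM in HFSC, 48.8 in CD34a6 and 1.08 in bulk, and Gdf10 at 0.0245 FPKM in HFSC, 73.3 in CD34a6 and 1.88 in bulk. Both were at 0 in all 4 culture columns. Of the other 8 Hedgehog genes, Boc ranked nearest to Gli1, at rank 53, with Gas1 at 61, Hhip at 71 and Gli2 at 110, and Smo was farthest, at rank 1719. Nearest to Ptch1 were Ror2 at a distance of 0.21, Slc39a13 at 0.22, Ankrd10 at 0.23, the cilium gene Ift80 at 0.24 and Mpdz at 0.34. In the culture columns Ror2 was at 0.0689 to 0.424 FPKM, against 5.37 to 7.47 for Ptch1. Gas1, Gli3 and Gli2 ranked 66, 74 and 79 from Ptch1, and Gli1 was the farthest of the 8, at rank 3585. Among the 3 usual targets, Hhip stood at rank 71 and Ptch1 at rank 186 from Gli1, and Hhip at rank 512 from Ptch1, each of 10213 genes.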

How the data were processed

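Directional RNA-seq libraries (21, in 7 groups of 3) were grouped by title. Expression was deposited by the authors as FPKM, 1 value per locus and population, per the file headers, which have the layout of Cuffdiff. Per the submitters' processing notes, HISAT 0.1.6 and StringTie 1.1.0 are listed for the 3-population table beside Cuffdiff, Cufflinks 2.2.1 and FastQC 0.11.3, and for the culture tables FastQC 0.11.2, cutadapt 1.5, TopHat2 2.0.13, featureCounts (Subread 1.4.2) and DESeq2 1.8.1, on GRCm38. Which tool made the p-values of the culture tables is not settled, since their layout is that of Cuffdiff. Log2 folds, p-values and q-values were deposited by the authors, and the folds were turned to have the population named in front on top. In the 3-population table each value was assigned by the population on its line, and the column 3C_HFSC was read as CD34+ because the labels describe that comparison.

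Here repeated lines were dropped, symbols matched, and counts, medians (pseudocount of 1 FPKM), shares and distances computed with Python 3.11.15 and pandas 2.3.3. The adjustment of p-values, the motif search and the distance were tested on simulated data, and the counting of calls was not. No fit was made, since no values per library were used, and calls are those of the authors at an adjusted p under 0.05. Starts count from 1. The members and lists were chosen with earlier results of these data known. Named were all members, up to 4 called genes of each list with the largest fold and at least 1 FPKM, the markers, and for Gli1 and Ptch1 the 5 nearest genes of at least 5 FPKM. Genes named outside this rule (Dhh, Shh, Scube3, Arhgap9, Ift172 against bulk) were chosen after their values were seen. The same holds for Ccnd1 in HFSC against CD34a6, and for Ccnd1 and Ccnd2 in CD34a6 against bulk. Alternatives were a threshold of 0.01, adjustment per pair, a minimum of 1 FPKM, pseudocounts of 0.1 and 0.01, scaling to equal sums, centring, and leaving out Gli1 for its shared locus. Some of the listed genes are not reported here by name.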

Additional observations from a re-analysis of the deposited data

How the results depend on the processing

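No paired analysis was possible because the tables hold 1 value per population, and for the same reason no replicate could be left out. Of 57 alternative values, 51 stayed within tolerance, which was a factor of 1.5 for counts and, for medians, a factor of 1.5 in the fold itself with the same sign. Within it, scaling took the median log2 fold of CD34+ against CD34neg to 0.87, and raised the members with a higher level in HFSC than in bulk to 7, because Cdon and Boc changed direction. With an adjusted p under 0.01, the members called fell to 3 in HFSC against bulk (Gli2, Gli3 and Gli1) and to 0 in CD34+ against CD34neg. Scaling every column to the same summed FPKM, by its construction, raised the median log2 fold to 4.20 in CD34a6 against bulk and to 1.25 in HFSC against bulk, and turned it to 0.057 in dorsomorphin against cyclopamine. The 6-letter core, a search added after seeing the data, was in 4 of 7 windows, against 0 for the longer motif. Leaving out Gli1 for the protein-coding gene on its locus, also added later, left 8 calls in CD34a6 against bulk, 4 in HFSC against bulk and 7 in HFSC against CD34a6. Leaving out every locus that overlaps any annotated gene was not run, because this left no member. Depth is unknown, so levels near 0 carry no detection limit, and levels and calls rest on the authors' processing.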
